A study of Rattus norvegicus with 10 samples.

Results

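The genes described here are 10 effectors and targets of the integrated stress response and the linked unfolded protein response: Atf4, Atf3, Ddit3, Asns, Chac1, Trib3, Sesn2, Ddit4, Xbp1 and Herpud1. They were found as the probe sets whose platform annotation gives exactly 1 gene symbol and that symbol is on the list. All 10 genes had such a probe set, with 3 probe sets for Trib3, 2 for Sesn2 and 1 for each of the others, or 13 of the 31042 probe sets other than controls on the array. They are 10 of the 14217 genes that the array names singly. Liver RNA was measured on 1 Affymetrix rat array per animal in 10 Wistar/ST rats, and every rat ate the high-fat diet. In the mulberry group, 5 rats received dried leaf powder in carboxymethylcellulose by gavage at a stated dose of 500 mg per kg per day. The labels word the schedule of the gavage in a way that can be read more than one way, so how often the rats were dosed is uncertain. In the control group, 5 rats were dosed at 0 mg per kg, and all livers were collected after 7 weeks. The labels used here give neither the sex nor the age of the animals, and no group on a normal diet was analysed here, so the comparison is of the supplement under a high-fat diet only. Whole liver pieces were extracted, so fewer cells of a type and less RNA per cell cannot be told apart.

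In the integrated stress response, kinases that sense amino acid shortage, heme shortage, double-stranded RNA or unfolded protein in the endoplasmic reticulum (ER) phosphorylate the translation factor eIF2. Bulk protein synthesis then slows while translation of ATF4, a bZIP transcription factor, goes up, and ATF4 with C/EBP partners switches on genes of amino acid supply and of the stress outcome. The ER stress arms run by IRE1 and ATF6 act beside it, through XBP1 and chaperone genes. Liver relies on these pathways when amino acid supply, secretory load or lipid load changes. An expression array reads transcript levels only. Neither eIF2 phosphorylation, nor translation of Atf4, nor the splicing step that activates XBP1 was measured.

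Factors of both arms bind short elements in promoters, and 4 promoters are printed to show where letters match such elements. RefSeq promoter windows of the rat assembly GRCr8, from 250 bases before to 50 bases after the gene start (300 bases in all), were matched for 9 of the 10 genes, all but Atf3. In each window both strands were searched for TGATGNAA, the core of the C/EBP-ATF response element bound by ATF4, and for its variant TGACGCAA. The ER stress response element of ATF6 and XBP1, which is CCAAT, then 9 bases of any kind, then CCACG, was searched too. The core and the variant differ in letters and cannot match at the same place. Capitals mark the matches, with the 9 free bases of the ER stress element and CCACG on its own in lower case. Chac1 and Herpud1 are shown because each holds both the core and the variant, Trib3 because it holds the core near its start, and Xbp1 because it holds the ER stress element. Their windows are chr3:126795881-126796180 (plus strand), chr19:10614658-10614957 (minus strand), chr3:161275484-161275783 (minus strand) and chr14:84604373-84604672 (plus strand), each printed 5′ to 3′ on the strand of the gene.
Chac1: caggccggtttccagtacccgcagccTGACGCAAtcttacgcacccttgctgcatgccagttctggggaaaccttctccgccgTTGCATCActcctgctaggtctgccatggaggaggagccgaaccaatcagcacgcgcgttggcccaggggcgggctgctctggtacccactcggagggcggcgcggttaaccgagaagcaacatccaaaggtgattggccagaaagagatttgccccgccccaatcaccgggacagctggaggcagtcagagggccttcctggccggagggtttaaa
Herpud1: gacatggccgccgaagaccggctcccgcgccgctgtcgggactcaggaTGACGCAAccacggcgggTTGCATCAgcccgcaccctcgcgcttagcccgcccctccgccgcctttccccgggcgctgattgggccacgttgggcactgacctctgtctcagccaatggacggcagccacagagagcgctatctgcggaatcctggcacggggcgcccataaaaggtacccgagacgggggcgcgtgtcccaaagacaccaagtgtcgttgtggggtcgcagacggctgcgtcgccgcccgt
Trib3: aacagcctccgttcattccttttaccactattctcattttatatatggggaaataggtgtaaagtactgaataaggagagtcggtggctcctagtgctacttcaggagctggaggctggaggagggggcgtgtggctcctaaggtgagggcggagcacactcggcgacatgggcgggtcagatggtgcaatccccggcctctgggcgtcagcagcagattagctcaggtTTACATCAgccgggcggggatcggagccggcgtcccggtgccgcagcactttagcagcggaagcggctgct
Xbp1: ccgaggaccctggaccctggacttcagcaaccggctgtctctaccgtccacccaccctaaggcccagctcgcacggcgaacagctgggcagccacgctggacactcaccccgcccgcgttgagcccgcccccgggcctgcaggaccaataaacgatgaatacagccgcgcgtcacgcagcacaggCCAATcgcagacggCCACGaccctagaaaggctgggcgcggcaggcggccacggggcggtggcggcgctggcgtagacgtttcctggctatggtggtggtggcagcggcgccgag

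The core TGATGNAA lay in 3 of the 9 windows, as against 3.98% of the 33469 promoters in the table, and the variant TGACGCAA in 2 of 9, as against 0.496%. In Chac1 the variant starts at position -224 and the core at -167 from the gene start, in Herpud1 they start at -202 and -184, and in Trib3 the core starts at -21. Only the exact ER stress element was searched, and forms with another spacing, arrangement or letter were not, so windows without it may hold related forms. In that exact form the whole element was found only in Xbp1 among the 9, at -65, and in 0.0657% of all promoters. Its ending CCACG alone, which is contained in the whole element, lay in 7 of 9 windows and in 31.6% of all promoters. Neither TGACGTGG, the unfolded protein response element, nor TGACGTCA, the cyclic AMP response element, was found in any of the 9 windows, which says only that these letters are not in these 300 bases. They lay in 0.595% and 1.83% of all promoters. The 4 printed windows had GC contents of 58.0% to 69.3%, above the median of 51.7% over all promoters.

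Correlations between arrays over all probe sets were 0.957 to 0.975, and median intensities 97.5 to 118. For the control probe sets, the 3′ signal over the 5′ signal in log2 was -0.012 to 0.34 for Gapdh and 1.29 to 2.10 for beta-actin, and neither differed between the groups beyond the spread between rats (two-sided exact permutation p = 0.913 and p = 0.405). All 13 hepatocyte markers named on the array passed the filter on low values, with the summed intensity at 326740 to 379783 in control and 331490 to 391793 in mulberry rats. Of the neutrophil markers 2 of 7 passed the filter. Their summed intensity was 268 to 365 in control and 114 to 273 in mulberry rats, so together they were mostly lower with mulberry. Most of that sum was S100a9, with a mean of 232 in control and 132 in mulberry rats. A dim marker can pass a filter on the mean through high values in a single group. The neutrophil markers that failed it were not tested, so the lower values hold only for the 2 that passed. The 12 macrophage markers all passed, with sums of 24013 to 35212 in control and 15801 to 35886 in mulberry rats. With mulberry, 9 of the 12 were higher and 3 lower on average. At an unadjusted limma p under 0.05 there were 2 of 12, beside 1.79% of all genes. The brightest, Cd14, had means of 4937 in control and 3838 in mulberry rats (limma unadjusted p = 0.0223). The part of these cell types in the values below was not tested.

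None of the 10 stress-response genes passed the test for a difference between mulberry and control rats, and for each the groups overlapped. All 13 probe sets passed the filter on low values, which kept probe sets with a mean log2 value above the 40th percentile (an intensity of about 61.1), and so all were tested. Differences are given as mulberry minus control in log2(intensity + 16) with the standard error (SE) of limma's model, and they understate changes of dim probe sets. With limma and Benjamini-Hochberg adjustment over 18625 probe sets, 0 of the 13 passed an adjusted p of 0.05, where the background over all probe sets was 0%. At an unadjusted p under 0.05 there were 0 of 13, beside 1.74% of all probe sets, and 0 of 13 had groups that did not overlap, beside 0.344%. The adjusted p of every member was 0.9999. With 1 probe set per gene, that with the highest mean, the log2 difference was negative for 6 genes and positive for 4, and the median difference was -0.12. Over all 10328 genes tested the median was 0.0035, and 51.3% had a higher mean. Chac1 counts as positive at 0.013, although its mean linear intensity was slightly lower with mulberry. The median of the 10 genes was -0.017 without control rat 3 and -0.027 without mulberry rat 3.

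**Figure D1:**
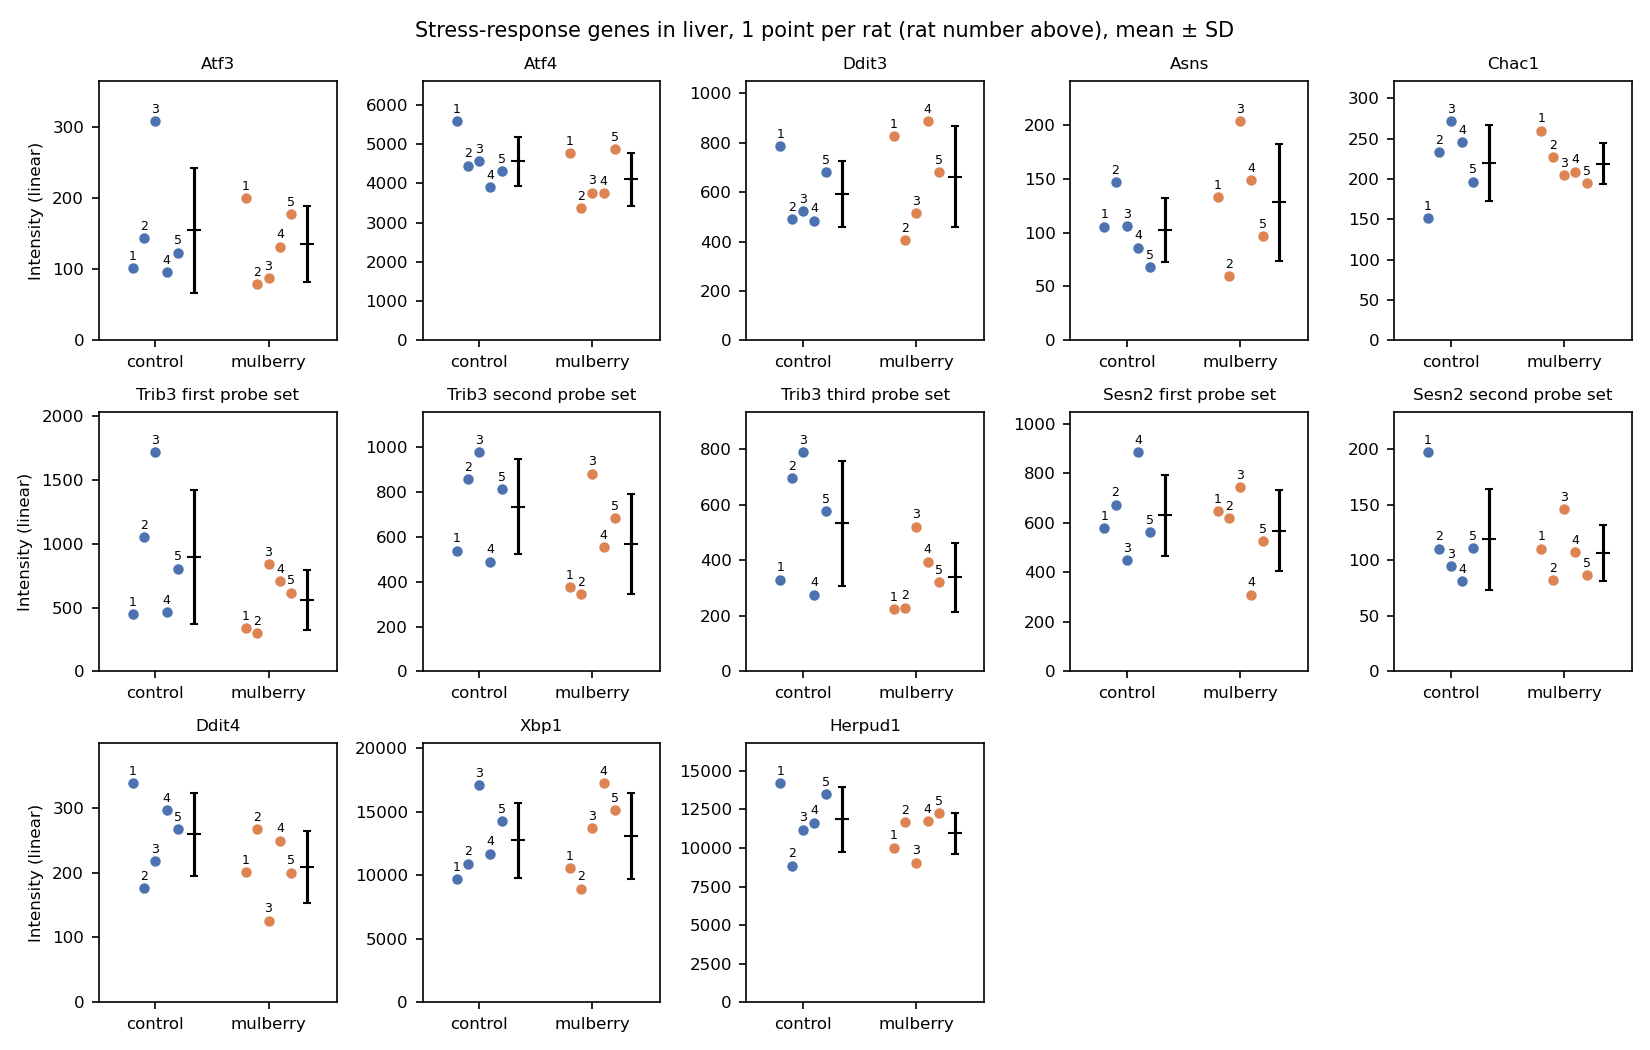
Linear intensity (vertical axis, starting at 0) of the 13 probe sets of the stress-response genes in 5 control (blue) and 5 mulberry (orange) rats. Each point is 1 rat with its number, and the black bar is the mean ± SD. The groups overlap in every panel, and control rat 3 is the highest of all rats for Atf3 (309) and for the first probe set of Trib3 (1721).

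Among the transcription factors, Atf4, the factor at the centre of the response, had a slightly lower mean with mulberry. Its intensities in control rats 1 to 5 were 5588, 4451, 4563, 3909 and 4311, and in mulberry rats 1 to 5 they were 4766, 3371, 3759, 3755 and 4872. Control rat 1 was the highest and mulberry rat 2 the lowest. Control rats 2 to 5 lay together, with mulberry rats 1 and 5 above them and mulberry rats 3 and 4 below. The means were 4564 ± 623 without and 4105 ± 672 with mulberry (SD, n = 5 each). The difference was -0.16 ± 0.13 (SE, limma unadjusted p = 0.234), with a 95% confidence interval of -0.43 to 0.12. As a ratio of intensities, both with 16 added, that interval runs from 0.742 to 1.08. Atf4 gave the narrowest interval of the 13 probe sets. Without control rat 1 the difference was -0.082, and without mulberry rat 2 it was -0.091.

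Atf3, a stress-induced bZIP repressor and activator that is also an immediate early gene, varied widely between rats. It was measured at 101, 144, 309, 96.4 and 123 in control rats 1 to 5 and at 200.0, 78.8, 87.2, 132 and 177 in mulberry rats 1 to 5. One animal, control rat 3, stood above all others, and the remaining control rats lay within the range of the mulberry rats. The difference was -0.13 ± 0.31 (SE, limma unadjusted p = 0.679), and it turned to 0.13 without control rat 3, to 0.017 without mulberry rat 2 and to 0.0093 with array weights. The mean of 17 immediate early genes, set relative to all rats, was also highest in control rat 3, at 0.47. It was nearly as high in control rat 1, at 0.37, where Atf3 was only 101. The list does not hold Atf3 itself, and the part of what moved it in the Atf3 values was not tested.

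Ddit3 encodes CHOP, the factor that carries prolonged stress towards cell death. Its intensities were 785, 491, 524, 484 and 682 in control rats 1 to 5 and 826, 405, 515, 888 and 681 in mulberry rats 1 to 5. Each group held both high and low animals: control rats 1 and 5 and mulberry rats 1, 4 and 5 lay between 681 and 888, and all the others between 405 and 524. The mean was 593 ± 134 without and 663 ± 204 with mulberry (SD, n = 5 each), with a difference of 0.13 ± 0.21 (SE, limma unadjusted p = 0.567; exact permutation p = 0.627). Leaving out mulberry rat 4 brought it to 0.0084, and leaving out mulberry rat 2 to 0.28.

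Of the direct ATF4 targets, Asns, which makes asparagine from aspartate and glutamine, had a higher mean with mulberry but was dim. Control rats 1 to 5 had 105, 147, 106, 85.9 and 68.2, and mulberry rats 1 to 5 had 133, 59.4, 203, 149 and 96.4. Mulberry rat 2 was the lowest of all rats, just under the filter level, and mulberry rat 3 the highest of all, so that the mulberry group enclosed the whole control group. The difference was 0.23 ± 0.27 (SE, limma unadjusted p = 0.421), with a confidence interval of -0.37 to 0.82. It was 0.054 without mulberry rat 3 and 0.44 without mulberry rat 2.

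Chac1 degrades glutathione in the cytosol, and its transcript is among the most ATF4-dependent. It was measured at 152, 233, 272, 246 and 197 in control rats 1 to 5 and at 260.0, 227, 205, 209 and 195 in mulberry rats 1 to 5. The group means were nearly equal, at 219.9 ± 46.7 without and 219 ± 25.7 with mulberry (SD, n = 5 each). The difference of 0.013 ± 0.16 (SE, limma unadjusted p = 0.935) changed sign with quantile normalization (-0.0053), with a median shift (-0.015) and when any of 4 rats was left out. The confidence interval, -0.33 to 0.36, corresponds to ratios of 0.795 to 1.28.

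Trib3, a pseudokinase that binds AKT and ATF4 and damps both insulin signalling and the stress response, had the most negative difference of the 10 genes, and its mean was lower with mulberry on all 3 of its probe sets. On the first probe set, the one with the highest mean, control rats 1 to 5 had 447, 1052, 1721, 467 and 805, and mulberry rats 1 to 5 had 341, 299, 841, 708 and 616. Control rats 3 and 2 were the highest of all rats and mulberry rats 1 and 2 the lowest, while control rats 1 and 4 lay below mulberry rats 3, 4 and 5. The mean was 898 ± 524 without and 561 ± 235 with mulberry (SD, n = 5 each), and the difference was -0.59 ± 0.37 (SE, limma unadjusted p = 0.138; exact permutation p = 0.254). The interval of -1.40 to 0.22 spans ratios from 0.380 to 1.16. Without control rat 3 the difference was -0.31.

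The other two Trib3 probe sets gave a similar order of animals. On the second, control rats 1 to 5 had 538, 858, 979, 490.2 and 812 and mulberry rats 1 to 5 had 375, 346, 881, 555 and 682, with a difference of -0.40 ± 0.26 (limma unadjusted p = 0.153). On the third, control rats 1 to 5 had 329, 696, 789, 276 and 577 and mulberry rats 1 to 5 had 225, 229.6, 521, 395 and 320.0. There all 5 mulberry rats lay below the median control rat, yet mulberry rats 3 and 4 stayed above control rats 1 and 4. Its difference of -0.59 ± 0.30 had the smallest unadjusted limma p of the 13 probe sets (0.0717; exact permutation p = 0.143). Over the 10 rats the probe sets of Trib3 correlated with each other at Pearson's r of 0.93 to 0.96 and Spearman's rho of 0.92 to 0.96, given as a description of one transcript measured 3 times.

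**Figure D2:**
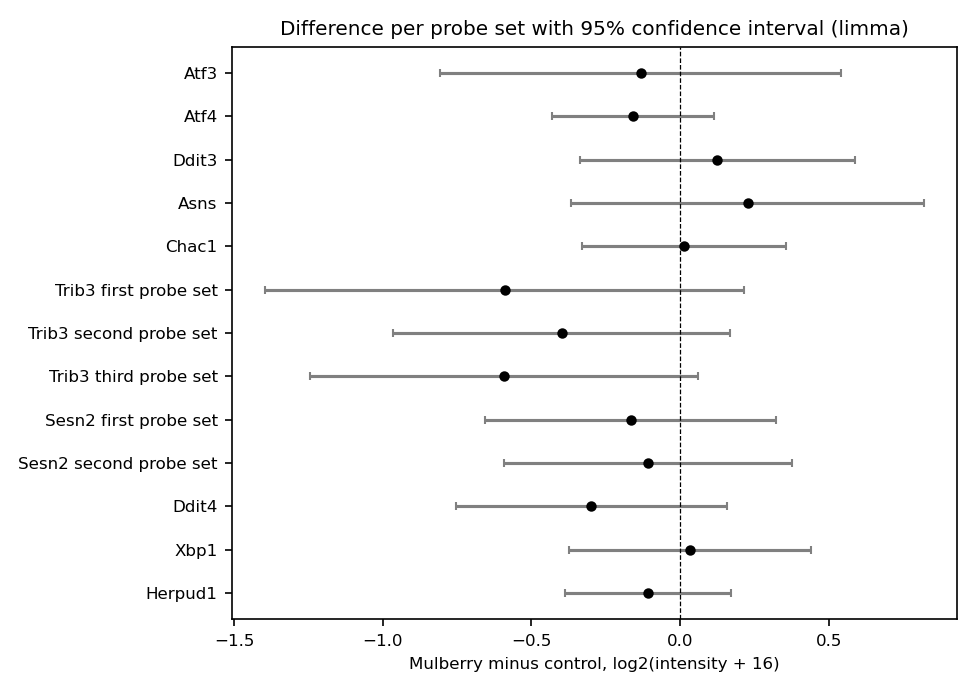
Difference between mulberry and control rats for each of the 13 probe sets (horizontal axis, log2(intensity + 16)), with the 95% confidence interval of limma's model (n = 5 rats per group). All 13 intervals include 0; that of Atf4 is the narrowest (-0.43 to 0.12) and that of the first Trib3 probe set reaches furthest down (-1.40).

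Sesn2 and Ddit4 tie the response to mTORC1, the kinase complex that drives growth: sestrin 2 holds mTORC1 down when leucine is scarce, and Ddit4, also called REDD1, acts through the TSC complex. For Sesn2, the first probe set read 577, 672, 450.0, 885 and 563 in control rats 1 to 5 and 645, 618, 743, 309 and 524 in mulberry rats 1 to 5. Control rat 4 was the highest and mulberry rat 4 the lowest of all rats. The difference was -0.17 ± 0.23 (SE, limma unadjusted p = 0.477), and it turned to 0.032 without mulberry rat 4. On the second and dimmer probe set, control rats 1 to 5 had 197, 111, 94.6, 81.4 and 111 and mulberry rats 1 to 5 had 110.4, 82, 146, 107 and 86.9, with control rat 1 the highest of all and a difference of -0.11 ± 0.22. The probe sets of Sesn2 did not follow each other over the rats (Pearson's r = 0.00067, Spearman's rho = 0.030, n = 10), unlike those of Trib3, so the order of animals for Sesn2 depends on the probe set read.

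Ddit4 had the largest negative difference after Trib3. Its intensities were 338, 176, 218, 296 and 267 in control rats 1 to 5 and 201, 267, 126, 249 and 200.1 in mulberry rats 1 to 5. Mulberry rat 3 was the lowest of all rats, and control rats 1 and 4 were the highest. The mean was 259 ± 63.8 without and 209 ± 54.9 with mulberry (SD, n = 5 each), with a difference of -0.30 ± 0.21 (SE, limma unadjusted p = 0.182) and an interval of -0.76 to 0.16. Without mulberry rat 3 it was -0.14.

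The ER arm was read through Xbp1 and Herpud1. Xbp1 encodes a factor that is activated by IRE1 and also serves secretion and lipid synthesis in liver. It was measured at 9679, 10899, 17096, 11685 and 14265 in control rats 1 to 5 and at 10530.4, 8943, 13704, 17241 and 15111 in mulberry rats 1 to 5. Control rat 3 and mulberry rat 4 were nearly equal as the highest animals, and mulberry rat 2 and control rat 1 were the lowest. The difference was 0.032 ± 0.19 (SE, limma unadjusted p = 0.866), and its sign turned without control rat 1, control rat 2, mulberry rat 4 or mulberry rat 5 (-0.059, -0.016, -0.077 and -0.029).

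Herpud1 encodes an ER membrane protein that helps to dispose of misfolded proteins. Its intensities were 14199, 8848, 11178, 11627 and 13472 in control rats 1 to 5 and 10021, 11651, 9048, 11735 and 12236 in mulberry rats 1 to 5. The highest rats were control rats 1 and 5, the lowest control rat 2, and the mulberry rats lay between these extremes. The difference of -0.11 ± 0.13 (SE, limma unadjusted p = 0.423) had an interval of -0.39 to 0.17, or ratios of 0.765 to 1.13. It was -0.038 without control rat 1, -0.041 without mulberry rat 3 and -0.21 without control rat 2. Of all 10 rats, control rat 2 and mulberry rats 3 and 1 had the lowest Herpud1, and the same 3 rats had the lowest Edem1, a lectin of the same disposal route, a match noticed after the values were seen and not tested. Edem1 was at 15363, 7002, 17992, 14432 and 17104 in control rats 1 to 5 and at 6342, 11824, 7028, 20988 and 9379 in mulberry rats 1 to 5.

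The SD within groups was above the median of probe sets in the same tier of mean intensity (10 tiers of equal size) for 12 of the 13 probe sets of the stress-response genes, all but Chac1; 3 of these are the correlated probe sets of Trib3. Set against all tested probe sets it was above the median for 10 of 13, with Atf4 at percentile 32.8, Herpud1 at 38.7 and Chac1 at 42.7. Within its tier, the first Trib3 probe set stood at percentile 98.2, Atf3 at 91.6, Xbp1 at 90.9 and Ddit3 at 87.1. Atf4, the factor upstream of most of them, stood at 65.7 and Chac1 at 32.8. The highest rat exceeded the lowest 5.75-fold for the first probe set of Trib3, 3.92-fold for Atf3 and 3.43-fold for Asns, but only 1.66-fold for Atf4 and 1.6-fold for Herpud1. These percentiles describe the arrays and were not tested.

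**Figure D3:**
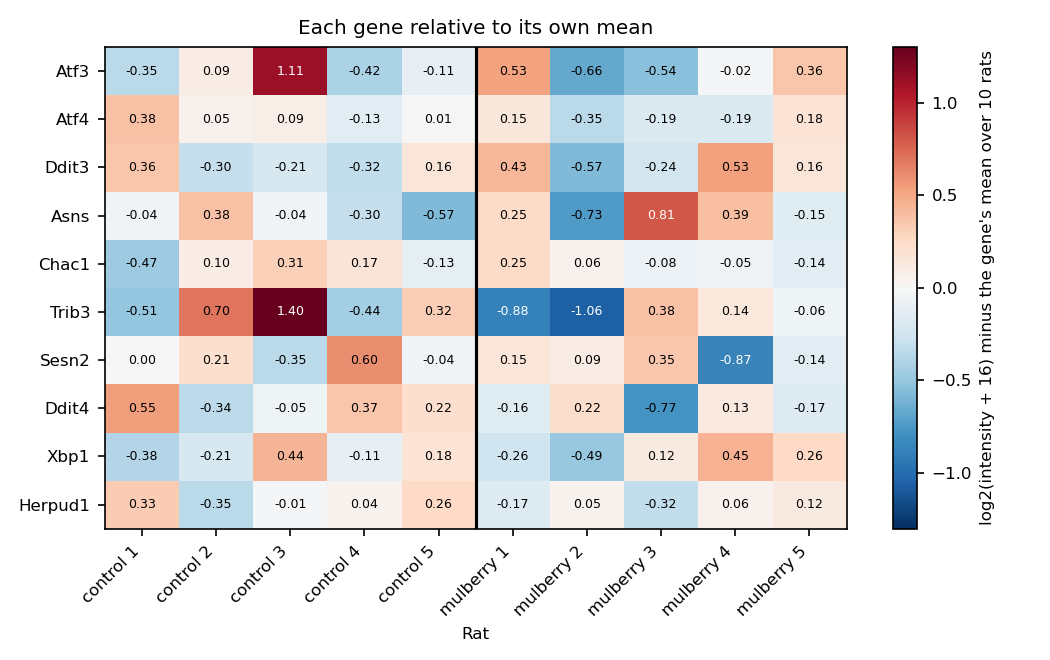
Each of the 10 genes (rows, 1 probe set per gene) in each rat (columns, control left of the line and mulberry right), as log2(intensity + 16) minus the gene's mean over all 10 rats, with the value printed in each cell. No rat is high or low in every row: control rat 3 is highest for Atf3 (1.11) and Trib3 (1.40) but low for Sesn2 (-0.35), and mulberry rat 2 is lowest for Trib3 (-1.06) but above the mean for Ddit4 (0.22).

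Correlations among the 10 genes across animals were centred near 0. Of the 45 pairs of genes, 24 had a Pearson's r above 0 over the 10 rats, or 53.3%, as against 50.35% of all pairs of tested genes, and the median r was 0.031. At an unadjusted p under 0.05 there were 4 pairs (two-sided permutation test with 100000 resamples), and 0 after Benjamini-Hochberg adjustment over the 45, by Pearson's r or by Spearman's rho. An r at least as far from 0 as in those 4 pairs was reached by 8.89% of the member pairs and by 6.51% of all gene pairs.

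The closest pair was Ddit4 and Herpud1, at r = 0.84 (permutation p = 0.00199, adjusted p = 0.0895) and rho = 0.67 (permutation p = 0.0372, adjusted p = 0.513). Without control rat 1 and mulberry rat 3, which lay farthest from the median of Ddit4, r was 0.69. Without mulberry rat 5 alone, r was 0.89 and passed the adjusted threshold (permutation adjusted p = 0.0414). With quantile normalization r fell to 0.67 (permutation adjusted p = 0.367). Trib3 and Xbp1 followed at r = 0.71 (permutation p = 0.0232, adjusted p = 0.349) and rho = 0.65 (permutation p = 0.0503, adjusted p = 0.513), with r = 0.44 without control rat 3 and mulberry rat 2, the farthest from the median of Trib3. For this pair r was 0.80 with values centred within each group and 0.61 to 0.85 when any single rat was left out. Asns ran against Ddit4, at r = -0.70 (permutation p = 0.0227, adjusted p = 0.349) and rho = -0.65 (permutation p = 0.0496, adjusted p = 0.513), with r = -0.48 without mulberry rats 2 and 3. It also ran against Herpud1, at r = -0.67 (permutation p = 0.0336, adjusted p = 0.378) and rho = -0.55 (permutation p = 0.105, adjusted p = 0.513), with r = -0.66 without the same rats. Chac1 and Herpud1, whose promoters printed above hold the same pair of elements, had an r of -0.56 (permutation p = 0.0916, adjusted p = 0.6) and a rho of -0.68 (permutation p = 0.0336, adjusted p = 0.513), with r = -0.40 without control rats 1 and 3. Atf4 and its target Trib3 had an r of 0.11 (permutation p = 0.772, adjusted p = 0.890) and a rho of 0.0061 (permutation p = 1, adjusted p = 1), with r = -0.019 without control rat 1 and mulberry rat 2. Control rat 1 was the highest of all for Atf4 and, on the first Trib3 probe set, the lowest control rat for Trib3; on the other two probe sets control rat 4 was lower.

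**Figure D4:**
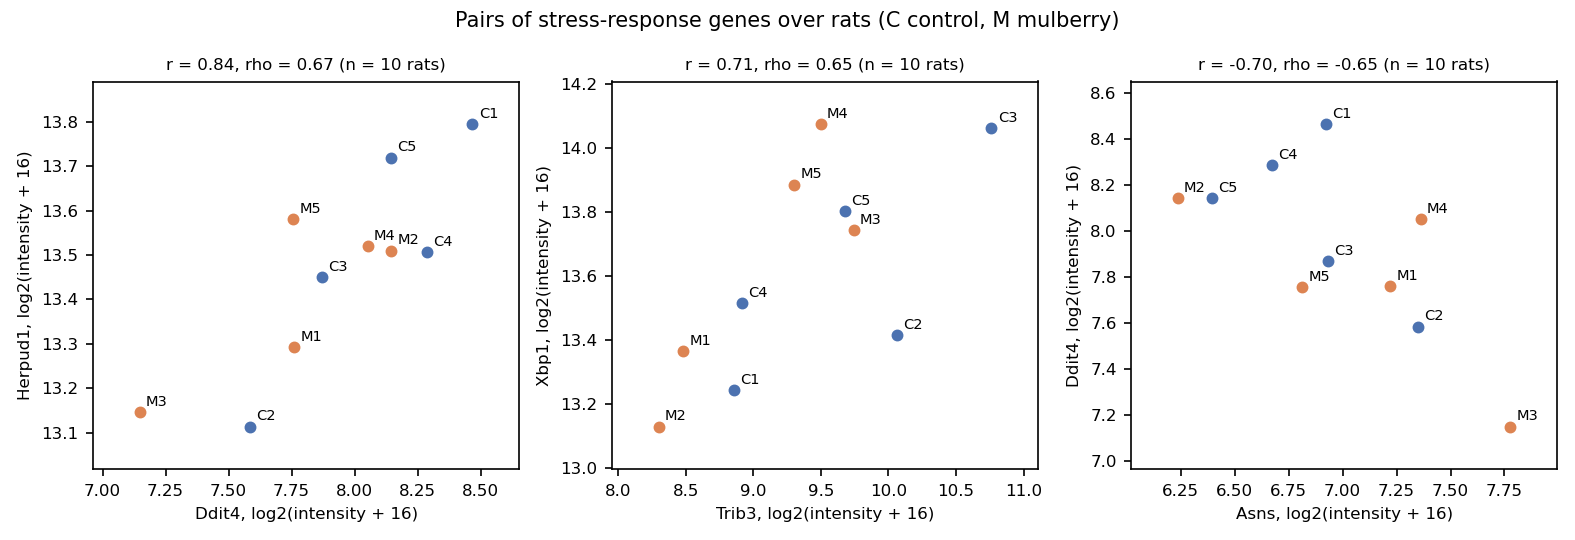
The 3 pairs of stress-response genes with the strongest correlations by Pearson's r, 1 point per rat (C control in blue, M mulberry in orange, with the rat number), both axes in log2(intensity + 16). By the size of Spearman's rho the strongest pair was Chac1 and Herpud1 (-0.68), which is not shown. Control and mulberry rats are mixed along each trend, with r = 0.84 for Ddit4 and Herpud1, 0.71 for Trib3 and Xbp1 and -0.70 for Asns and Ddit4.

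The genes whose pattern over the 10 rats was most like each member were looked up among 10318 other genes, by Pearson's r of values centred within each group. The nearest to Atf4 was Ppp1r15a (r = 0.92), which encodes GADD34, the phosphatase subunit that reverses eIF2 phosphorylation. Ppp1r15a was measured at 538, 466, 479, 352 and 449 in control rats 1 to 5 and at 566, 322, 338, 354 and 466 in mulberry rats 1 to 5, with control rat 1 and mulberry rat 1 the highest. Trib3 was followed by Foxa2 (r = 0.96), a hepatocyte transcription factor of the fasting response, and by Sox7 (r = 0.94). Foxa2 stood at 1234, 1703, 2778, 1042 and 1764 in control rats 1 to 5 and at 1126, 1006, 2184, 1613 and 1849.5 in mulberry rats 1 to 5, and control rat 3 was the highest for both it and Trib3. For Asns the nearest were Nprl3 (r = 0.93), a subunit of the GATOR1 complex that restrains mTORC1, and Il1a (r = 0.93). Sesn2 was nearest to Tctn3 and Nt5e (r = 0.96 and 0.95) on its first probe set. Its second probe set, which did not follow the first, was not compared. Chac1 was nearest to Rnf130 and Chodl (r = 0.96 and 0.93), Ddit4 to Cand1 and Fbxo33 (r = 0.94 both), and Herpud1 to Tent4a and Il6r (r = 0.93 and 0.92). Ddit3 was nearest to Rab29 and F9 (r = 0.91 and 0.89), Xbp1 to Mad2l1bp and Cox10 (r = 0.92 both), and Atf3 to Rpl3 and Dipk1a (r = 0.92 and 0.91), while Cdc14b was next for Atf4 (r = 0.91). Each is the highest or next highest of 10318 values of r over 10 animals, and no p is given.

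Around the 10 genes, the wider pathway was read in 8 lists from textbook knowledge. In none did a gene pass an adjusted p of 0.05 with limma, and each of the 8 list medians changed sign under at least 1 alternative. Of 18 genes of eIF2 phosphorylation, 12 were higher and 6 lower on average with mulberry (median 0.0092). Eif2ak2, the kinase PKR that responds to double-stranded RNA and is itself interferon-inducible, was at 0.27 ± 0.21 (SE), and Ppp1r15b, the constitutive partner of the eIF2 phosphatase, at -0.18 ± 0.16. The catalytic subunit gene Ppp1ca was the brightest, at 4713 ± 732 without and 4767 ± 324 with mulberry (SD, n = 5 each).

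Among ATF4 partners and secreted factors, 7 of 14 were higher on average with mulberry (median -0.0049). Cebpb, which encodes a C/EBP partner of ATF4, was at -0.32 ± 0.17 (SE). Binding at the promoters printed above was not measured. Nupr1, a stress-induced chromatin protein, was at -0.20 ± 0.14, and Atf5, an ATF4 relative abundant in liver, at -0.21 ± 0.17. The limma unadjusted p was 0.082 for Cebpb. Its intensities were 5100.4, 3331, 4370.4, 4141 and 4709 in control rats 1 to 5 and 2302, 4303, 3374, 3280.2 and 4337 in mulberry rats 1 to 5. The lowest animals were mulberry rats 1 and 4, and the next was control rat 2.

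In the amino acid list 2 of 15 genes were under an unadjusted limma p of 0.05, beside 1.79% of all genes. That count was 0 without control rat 3, without control rat 4 or without mulberry rat 5, and 0 with array weights, a replicate block or a median shift. The other 6 stress pathway lists had 0 such genes, but the list of ATF4 partners had 2 without control rat 2. The 2 genes of the amino acid list both encode mitochondrial enzymes. Aldh18a1, the first enzyme of proline synthesis, was at 82.5, 91.3, 74.6, 67.6 and 94.9 in control rats 1 to 5 and at 95.4, 114, 99.5, 127 and 118 in mulberry rats 1 to 5. Its groups did not overlap, by a margin of less than 1 intensity unit, which held for 0.32% of all genes. The difference was 0.37 ± 0.16 (SE, limma unadjusted p = 0.0362, adjusted p = 0.9999). Aldh1l2, the mitochondrial formyltetrahydrofolate dehydrogenase, was at 3627, 3548, 3134, 2495 and 3067 in control rats 1 to 5 and at 4234, 3642, 3084, 4391 and 4172 in mulberry rats 1 to 5, with mulberry rat 3 inside the control range and a difference of 0.30 ± 0.13 (limma unadjusted p = 0.0357). In the whole list 6 genes were higher and 9 lower on average (median -0.051). Its brightest gene, Cth, which makes cysteine from cystathionine, was at -0.061 ± 0.21.

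Of 12 cytosolic tRNA synthetases, 5 were higher on average, the median was -0.027 and the range -0.097 to 0.14. Of the 8 lists, only that of mTORC1 genes had a narrower range, at -0.10 to 0.12. Aars1 was at 0.090 ± 0.093 and Tars1 at 0.12 ± 0.12. Of 20 ER chaperones and folding enzymes, 10 were higher on average (median -0.0022). Hspa5, the main ER chaperone BiP, was at 18998 ± 1522 without and 19257 ± 2101 with mulberry (SD, n = 5 each), a difference of 0.017 ± 0.090 (SE). Calr was at 0.16 ± 0.11, and Hyou1, an ER chaperone, had the lowest value of the list at -0.47 ± 0.26 (limma unadjusted p = 0.0905).

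Of 23 ER sensors and degradation genes, 12 were higher on average (median 0.00039). Vcp, the ATPase that pulls proteins out of the ER membrane, was at 0.14 ± 0.080 and Edem1 at -0.44 ± 0.32. In the list of 18 mTORC1 and autophagy genes, 10 were higher on average (median 0.0037). Ulk1, the kinase that starts autophagy, was at -0.10 ± 0.098, Atg12 at 0.11 ± 0.13, and Sqstm1, the cargo receptor p62, at -0.054 ± 0.078.

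Immediate early genes, read because Atf3 is one of them, were lower on average with mulberry in 12 of 17 cases (median -0.24), with 3 of 17 under an unadjusted limma p of 0.05, beside 1.79% of all genes. That count was 1 without mulberry rat 5. The median was -0.11 without control rat 3 and 0.044 with both control rats 1 and 3 left out. Myc was at -0.84 ± 0.29 and Klf10, which is induced by TGF-beta, at 0.43 ± 0.17 in the opposite direction. Dusp1, a phosphatase that ends stress kinase signalling, was the brightest and had a difference of 0.20 ± 0.35.

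**Figure D5:**
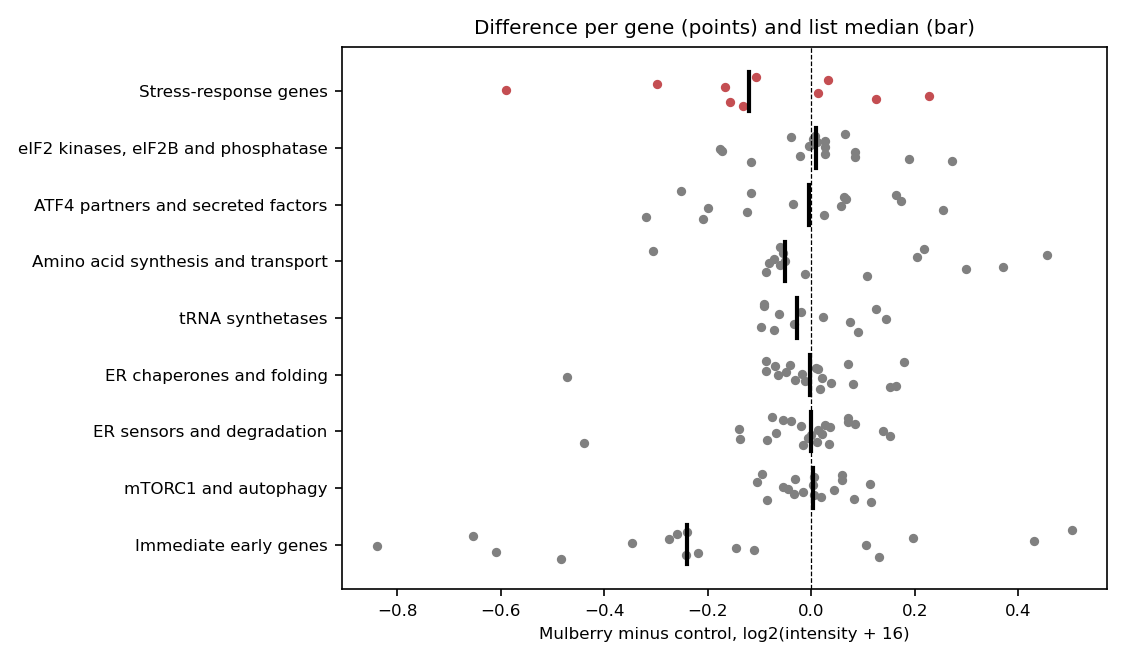
Difference between mulberry and control rats per gene (points; horizontal axis, log2(intensity + 16)) for the 10 stress-response genes (red) and the tested genes of 8 lists of the surrounding pathway (grey), with the median of each list as a bar. Medians lie between -0.24 (immediate early genes) and 0.0092 (eIF2 list), with the 10 stress-response genes at -0.12.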

How the data were processed

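Liver RNA of 10 rats was measured, 5 per group. The authors deposited 1 linear signal intensity per probe set and array. The submitters' processing notes name MAS5 and affy, with no version; the background step and genome build are not given in the sources used here. On every array the mean after trimming 2% at each end was 500 and the lowest intensity 1, so the deposited values were taken as scaled between arrays.

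From the 31099 probe sets 57 controls were left out, log2(intensity + 16) was taken, and a mean above 6.27 (the 40th percentile) was required, which left 18625. Groups were compared with limma 3.58.1 in R 4.3.3 (lmFit, eBayes with a variance trend, two-sided, Benjamini-Hochberg over all 18625) and, for single values, by an exact permutation test over all 252 assignments (smallest possible p 0.00794). Python 3.11.15, numpy 2.4.6, scipy 1.17.1, pandas 2.3.3 and matplotlib 3.10.9 were used. The limma step was tested on simulated data. A gene was represented by its brightest tested probe set. Probe sets were named by the platform annotation; all 10 member identifiers matched RefSeq.

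The members, lists and settings were chosen with earlier results of these data known. Named were all members and, per pathway list, the 2 genes with the smallest p and the brightest; and for each member the 2 genes of most similar pattern. Of the cell type lists only the hepatocyte, neutrophil and macrophage lists are described; lymphocyte, endothelial, stellate cell, bile duct, red blood cell and pancreatic markers had list medians between -0.018 and 0.11 and 0 genes past the adjusted threshold. Same-numbered rats of the groups deviated together with correlations of -0.33 to 0.096 and were not treated as pairs. Alternatives were other pseudocounts, filters and scalings, no trend, array weights, a replicate block, other probe sets and rats left out. The number of arrays limits the precision.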

Additional observations from a re-analysis of the deposited data

Results flagged for a closer look

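Of 70 sets of 5 values examined, 26 of them of the stress-response genes themselves, 2 held an animal set apart from the rest of its group, and 0 of these were among the 10 genes. Chance sets apart about 1 in 20. Hspa5 was lower in control rat 2 (16412) than in the other control rats. Edem1 was lower in the same animal (7002).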

How the results depend on the processing

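With 20 refits of the model, 0 members and 0 probe sets overall passed an adjusted p of 0.05 under any of them; with the filter at the 60th percentile 8 of the 10 genes were tested, all but Atf3 and Asns. With the replicate number as a block the count was again 0, with 286 probe sets at an unadjusted p under 0.05 beside 325; with no filter it was 878 and with the 60th percentile 171. Of 5 control rats, 1 correlated best with the mulberry rat of its own number. Atf4, Ddit3, Asns, Trib3, Ddit4 and Herpud1 kept the sign of their difference in all alternatives that tested them, within -0.22 to -0.054, 0.0084 to 0.28, 0.054 to 0.44, -0.79 to -0.31, -0.42 to -0.14 and -0.21 to -0.037. The sign of 4 genes turned in 16 of 201 values in all, and the cause was not tested. Atf3 turned with array weights (0.0093), without control rats 1 and 3 (0.077), and in a range of -0.28 to 0.13 as single rats were left out. Chac1 turned without control rats 1 and 3 (-0.038), with a median shift (-0.015), with quantile normalization (-0.0053), and in a range of -0.10 to 0.091. Sesn2 ranged from -0.27 to 0.032 and Xbp1 from -0.077 to 0.16. The immediate early median moved to 0.044 without control rats 1 and 3. Of the pairs of genes, 1 was called without mulberry rat 5, and 0 without any of the other rats or under the other settings. Dim probe sets, such as those of Asns and Atf3, carry the least signal over background.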
